A study of Mus musculus with 4 samples.

Results

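Absorptive colonocytes are the water- and salt-absorbing cells of the colonic surface, and they were studied here as the class named Absorptive in single-cell RNA of mouse colonic organoids. The members were the cells that the deposited cell table assigns to this class, 350 of 6155 cells in all and 350 of 4172 epithelial cells. They came from 4 libraries, with 319 in WT untreated, 19 in WT TNF, 11 in Tnfr2-/- untreated and 1 in Tnfr2-/- TNF. The class was set by the authors, who compared clusters of the same cells with known markers, so its difference from the other classes is described below without a test.

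A colonocyte is born from stem cells at the crypt base and matures as it moves to the surface, where it stops dividing and builds a brush border. Mature colonocytes take up water, sodium and chloride, hydrate carbon dioxide with carbonic anhydrases and detoxify compounds from the lumen, and they keep bacteria at a distance with proteins on their apical membrane. TNF, tumor necrosis factor, is an inflammatory cytokine that signals through the receptors Tnfrsf1a (TNFR1) and Tnfrsf1b (TNFR2).

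All 4 cultures were organoids from the distal colon of mice aged 16 weeks, grown in a gel to passage 5, harvested on day 7 after passage and depleted of apoptotic cells. WT cultures were from C57BL/6 mice, and Tnfr2-/- cultures were from mice that lack Tnfrsf1b in the whole body, so every cell type of those cultures carried the deletion. In each genotype 1 culture was given 20 ng/ml of TNF, begun on day 1 after passage and ended on day 6, and 1 culture was left untreated. Each group was 1 library of 1 culture, so genotype, TNF and culture cannot be told apart for any difference between libraries, and the intervals given (exact, 95%) cover counting error only.

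Levels are UMIs (unique molecular identifiers, 1 per captured RNA molecule) summed over the cells of a class and library and given per 1000000 UMIs of that sum (CPM). The 319 WT untreated cells held 16057021 UMIs, the 19 WT TNF cells 863767, the 11 Tnfr2-/- untreated cells 539538 and the 1 Tnfr2-/- TNF cell 42016. Median depth of the Absorptive cells was 40865 to 51029 UMIs per cell in the 4 libraries, against 29670.5 to 40939.5 in the other epithelial cells. Mitochondrial genes took a median of 4.58% of the UMIs of an Absorptive cell and 2.92% of another epithelial cell in WT untreated, and 6.87% and 4.43% in Tnfr2-/- untreated. No Absorptive cell was called a doublet, and none had 1 of the 3 barcodes that occur in more than 1 library. Tnfrsf1b was at 3.36 CPM (54 UMIs) in the Absorptive cells of WT untreated and 3.47 CPM (3 UMIs) in WT TNF, and no UMI was seen in Tnfr2-/- untreated, where 3 counts would be 5.56 CPM. Its paralog Tnfrsf1a was at 34.4, 25.5 and 48.2 CPM in the same order. Xist, the RNA of the inactive X chromosome, had UMIs in 302 of 319 and 18 of 19 WT Absorptive cells and in 0 of 11 Tnfr2-/- untreated cells, and a Y-linked gene had UMIs in 12, 1 and 0 of them. The other epithelial cells showed the same for Xist, with 643 and 686 CPM in WT untreated and WT TNF and 0.160 and 0.101 CPM in Tnfr2-/- untreated and Tnfr2-/- TNF. Y-linked genes were near 0 in the Tnfr2-/- cells too, at 0.0798 and 0.151 CPM, so low Xist did not come with Y-linked RNA there. WT TNF held both, with Y-linked genes at 29.8 CPM (140 of 1144 cells) against 5.16 CPM (22 of 809 cells) in WT untreated. The labels give no sex, and these values do not settle it for any culture.

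The 6 markers taken for the class are all in the study's own list of absorptive genes and may have served to name it, so their height in the class describes the label and is no check of it. In WT untreated the Absorptive cells stood above every other epithelial class for each of them, and markers of other lineages were low or at 0. Goblet cell markers summed to 119 CPM (6 genes, Clca1 at 0), markers of the deep secretory cells to 4.55 CPM, of enteroendocrine cells to 2.86 CPM, of tuft cells to 0.249 CPM (5 of 6 at 0), of mesenchyme to 7.29 CPM (6 genes, Acta2 at 0) and of immune cells to 0.747 CPM. Stem and cycling markers summed to 30.7 and 35.3 CPM, against 236 and 736 CPM in the other epithelial cells. Regenerative markers were not low, at 3206 against 2616 CPM in WT untreated and 5519 against 3129 CPM in WT TNF. In Tnfr2-/- untreated and Tnfr2-/- TNF they were at 2686 against 4433 and 1833 against 7793 CPM. The goblet sum was 66.0 CPM in WT TNF, 258 CPM in Tnfr2-/- untreated and 1928 CPM in the single Tnfr2-/- TNF cell, and its part in the differences between libraries was not tested. In the small intestinal list Lct and Sis, the lactose- and sucrose-splitting enzymes of that organ, were at 0, and the sum of 432 CPM was almost all Rbp2, a retinol-binding protein, at 422 CPM.

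Aqp8, a water channel (chromosome 7, 123462291 to 123468004, plus strand, build GRCm38), was at 501 CPM (interval 490 to 512) in the WT untreated Absorptive cells, 285 in WT TNF and 119 in Tnfr2-/- untreated, and had no UMI in the single Tnfr2-/- TNF cell. The other epithelial cells of WT untreated held 7.70 CPM, which makes the Absorptive level 65.1-fold higher (57.5 to 73.8). That fold depends on the mix of the pooled cells, since 546 of the 809 were Progenitor.1. With the other classes weighted equally the Aqp8 difference was 4.09 (log2), against 5.85 with the cells pooled. Car1, a cytosolic carbonic anhydrase (chromosome 3, 14766216 to 14808368, minus strand), was at 10637, 9462, 11084 and 22753 CPM in the Absorptive cells of WT untreated, WT TNF, Tnfr2-/- untreated and Tnfr2-/- TNF. That is a narrow range beside the 469 CPM of the other epithelial cells of WT untreated. Car4, the carbonic anhydrase anchored to the apical membrane (chromosome 11, 84957786 to 84966044, plus strand), was at 190 CPM in WT untreated and only 8.10 and 22.2 CPM in WT TNF and Tnfr2-/- untreated, where all its UMIs came from 1 cell in each library.

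Cyp2c55, a cytochrome P450 of the colon (chromosome 19, 39007019 to 39042693, plus strand), was at 2078, 1624, 1540 and 762 CPM in the Absorptive cells of the 4 libraries in the same order. Saa1, a secreted acute-phase protein that binds retinol (chromosome 7, 46740497 to 46742980, minus strand), was at 2659, 3275, 1082 and 119 CPM. Lypd8, a secreted and membrane-anchored protein that keeps flagellated bacteria away from the epithelium (chromosome 11, 58379043 to 58390728, plus strand), was at 15445, 12296, 8967 and 12971 CPM. In WT untreated these 3 genes were 12.5-fold, 67.7-fold and 15.2-fold higher than in the other epithelial cells pooled. Between the sums of 11 cells or more, Aqp8 and Car4 were highest in WT untreated, Saa1 was lowest in Tnfr2-/- untreated, and Car1, Cyp2c55 and Lypd8 varied less. In WT TNF 1 cell reached 46734 CPM of Saa1, beside a cell median of 2077 CPM. Saa1 in the other epithelial cells had another order, at 39.3, 169, 81.3 and 327 CPM in WT untreated, WT TNF, Tnfr2-/- untreated and Tnfr2-/- TNF.

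**Figure D1:**
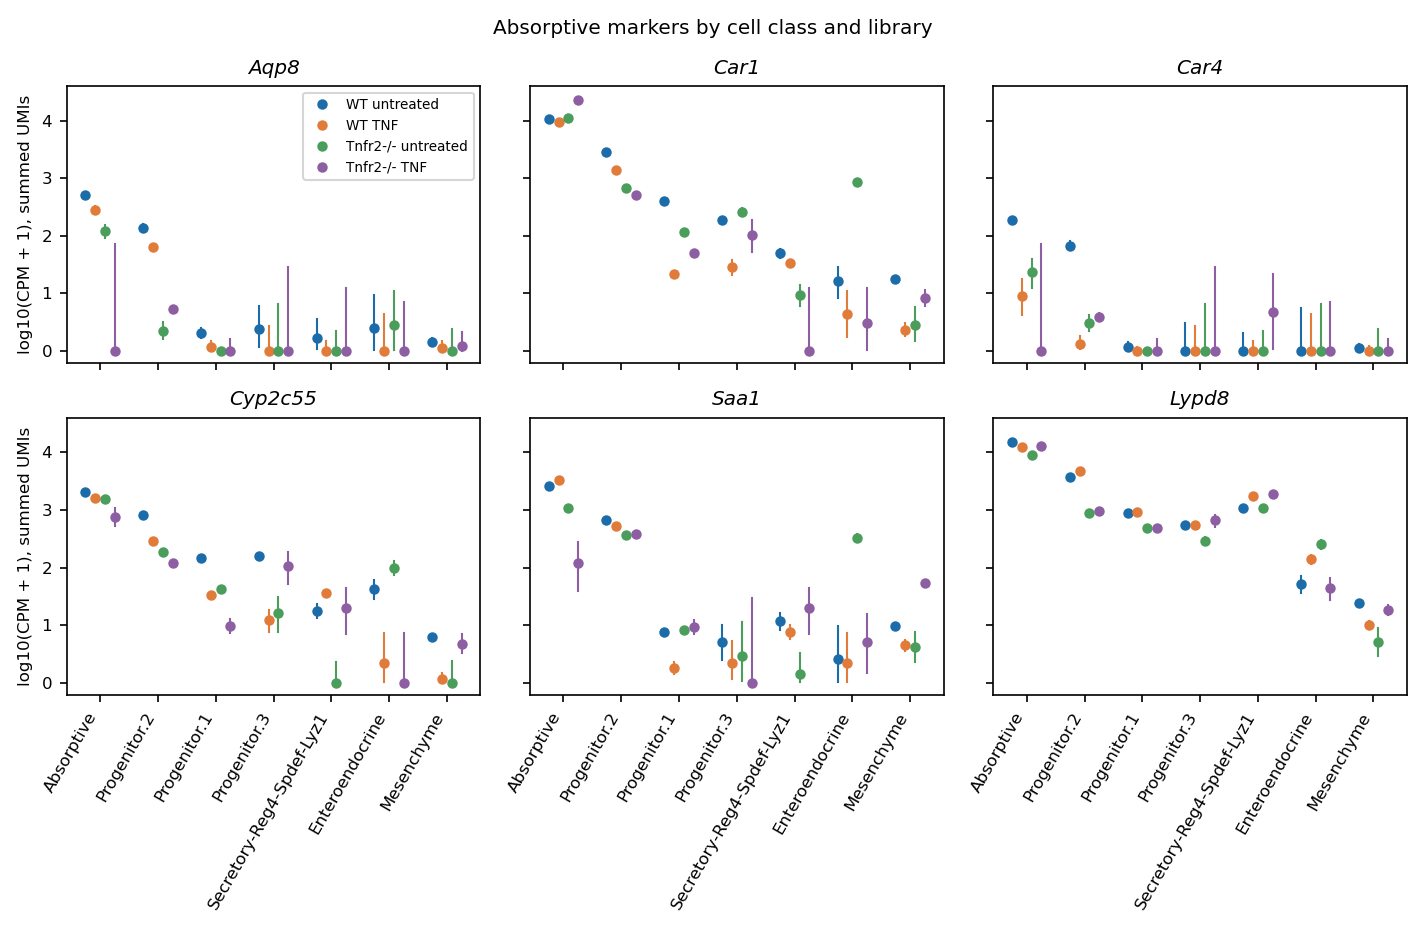
Level of the 6 markers (log10 of CPM + 1, summed UMIs, vertical axis) in Absorptive cells, 5 other epithelial classes and mesenchyme (horizontal axis) in the 4 libraries (colours). Lines are exact 95% Poisson intervals; the Absorptive cells are highest in WT untreated for every marker, and Progenitor.2 is next, with Aqp8 at 138 CPM against 501.

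Of 5970 genes that reached 20 CPM in either sum, 631 were at least 2-fold higher in the WT untreated Absorptive cells than in the 809 other epithelial cells (10.6% of the genes compared) and 939 were at least 2-fold lower (15.7%), on the scale of log2(CPM + 1). The balance of these counts rests on the scaling. With totals adjusted by TMM, a trimmed mean of the genes' ratios, the median of all compared genes moved from -0.10 to 0.28 and the counts became 1159 higher and 592 lower, so the share of higher genes went from 40.2% to 66.2%. The differences below use the totals as they are and the other epithelial cells pooled, of which 546 of 809 were Progenitor.1.

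A narrower set was at least 2-fold above every one of the 5 other epithelial classes with 30 cells or more, 110 genes (1.42% of 7730), and 73 genes were below every one of them (0.944%). Of those at 50 CPM or more, the gene that stood farthest above its nearest class was Tgm3, a transglutaminase that cross-links proteins, at 103 CPM against 1.43 in all other epithelial cells, with UMIs in 44.8% and 2.23% of the cells. The levels compared in this paragraph are of those cells pooled, and the gap to the nearest class is smaller. That gap was 3.08 (log2) for Tgm3, 2.84 for Prdx6, 2.72 for Eno3, 2.60 for Espn and 2.11 for Slc40a1. Espn, which bundles actin in microvilli, was at 113 against 3.71 CPM, and 75.9% of the Absorptive cells held it. Eno3, an enolase better known from muscle, was at 80.0 against 3.56 CPM. Prdx6, a peroxiredoxin that reduces lipid peroxides, was at 2228 against 294 CPM and was found in every Absorptive cell. Slc40a1, the iron exporter ferroportin, was at 64.9 against 3.24 CPM, and S100g, a calcium carrier controlled by vitamin D, at 121 against 10.4 CPM although only 21.3% of the Absorptive cells held a UMI of it. Rbp2 (422 against 22.9 CPM), Selenbp1, a selenium-binding oxidase (262 against 38.0 CPM), and Upp1, a uridine phosphorylase (94.97 against 12.1 CPM), belonged to the same 15 leading genes, with Glod5, Smim24, Cmbl, Plbd1, 2610528A11Rik and Gm5485.

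The 10 genes farthest below every other class were of another kind. Tubb5, a tubulin, was at 65.5 CPM in the Absorptive cells against 490 in the others, and Nap1l1, a histone chaperone, at 55.7 against 290 CPM. Cd24a, a surface protein of immature epithelium, was at 21.5 against 176 CPM. Bex3, Trmt112 (a partner of methyltransferases of RNA and proteins), Slc25a4 (an ADP/ATP carrier of mitochondria), Hsp90aa1 (a chaperone), Fubp1, Fxyd3 and Asns (asparagine synthetase) completed the list, at 13.0 to 199 CPM in the Absorptive cells and 73.8 to 661 CPM in the others.

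Both gene sets were read again in the other libraries, each against its own other epithelial cells. In WT TNF 94 of the 110 genes were at least 2-fold higher in the 19 Absorptive cells (104 reached 20 CPM), where 8.39% of all compared genes were. In Tnfr2-/- untreated 89 of the 110 were (98 reached 20 CPM), where 9.51% of all compared genes were. Of the 73 low genes, 49 and 51 were at least 2-fold lower in the same libraries (53 reached 20 CPM in each), against 17.2% and 18.4% of all compared genes. The set was chosen in WT untreated, whose cells do not enter these counts, but the class itself was drawn over the cells of all libraries together.

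The promoters of 4 genes are shown because the levels of these genes vary widely within the class or between libraries, as described further on: Aqp8 (chr7:123462044-123462303, plus strand), Saa1 (chr7:46742971-46743230, minus strand), Tgm3 (chr2:130012090-130012349, plus strand) and Car4 (chr11:84957504-84957763, plus strand), from RefSeq on GRCm38.p6, each from 250 bases before the start to 10 bases after it. The starts are those of RefSeq, and the Car4 window ends before the gene start given above (84957786), which is from another annotation. Capitals mark a match to GCAATAAA (the letters taken for CDX2, an intestinal homeobox factor) in Aqp8 and to TTGCNNAA (the letters taken for C/EBP factors) in Saa1 and Tgm3.
Aqp8: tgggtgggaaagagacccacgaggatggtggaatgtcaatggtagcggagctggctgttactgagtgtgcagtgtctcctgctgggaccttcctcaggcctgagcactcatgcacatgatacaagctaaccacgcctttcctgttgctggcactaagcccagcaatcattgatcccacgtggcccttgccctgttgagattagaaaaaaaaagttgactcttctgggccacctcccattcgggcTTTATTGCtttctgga
Saa1: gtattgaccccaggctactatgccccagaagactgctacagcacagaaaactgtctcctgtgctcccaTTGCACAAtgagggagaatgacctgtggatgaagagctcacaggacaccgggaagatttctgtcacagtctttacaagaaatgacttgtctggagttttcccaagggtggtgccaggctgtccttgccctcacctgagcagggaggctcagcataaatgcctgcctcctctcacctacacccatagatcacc
Tgm3: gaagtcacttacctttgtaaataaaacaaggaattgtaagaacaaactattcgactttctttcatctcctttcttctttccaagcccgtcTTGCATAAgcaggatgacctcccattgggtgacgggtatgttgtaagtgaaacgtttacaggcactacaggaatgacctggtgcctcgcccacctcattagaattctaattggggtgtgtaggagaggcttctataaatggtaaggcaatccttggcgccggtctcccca
Car4: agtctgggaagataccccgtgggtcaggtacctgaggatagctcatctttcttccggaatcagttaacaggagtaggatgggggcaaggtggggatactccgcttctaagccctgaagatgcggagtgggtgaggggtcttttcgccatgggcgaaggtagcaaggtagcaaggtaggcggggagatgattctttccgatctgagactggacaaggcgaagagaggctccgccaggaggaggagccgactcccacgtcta

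In the full windows of 300 bases, 82 of the 110 genes had an entry. The C/EBP letters, on either strand, were in 9 of these 82 (10.98%), in 7.74% of the promoters of 6098 expressed genes and in 10.8% of all 27025 promoters. The KLF letters GGGNGTGG were in 22 of 82 (26.8%), against 24.0% and 17.6%. GCAATAAA was in 2 of 82, Aqp8 and Adgrg7 (2.44%, against 0.459% and 0.984%). The letters CAAAGTCCA taken for HNF4, and the motifs taken for HNF1 and NF-kB, were in none of the 82 and in 0.312% to 0.477% of the larger sets. A match is a description of letters, and no match says only that these letters are not in this window.

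Genes of salt and water transport were mostly on the higher side. Of the 30 listed 21 were compared, and 15 were at least 2-fold higher in the Absorptive cells and 4 lower. The median difference was 2.33 (log2), beside -0.10 for all genes. Over all compared genes 10.6% were higher and 15.7% lower, here and for the lists below. A gene that reached 20 CPM in only 1 of the 2 sums had to be higher in that sum to be compared. Such genes, in either direction, widen the counts and medians of the lists. The apical chloride and bicarbonate exchanger Slc26a3 was at 114 CPM against 6.33 in the other epithelial cells, and the sulfate carrier Slc26a2 at 375 against 51.0 CPM. All 3 subunits of the epithelial sodium channel were higher, Scnn1a at 39.1 against 7.53 CPM, Scnn1b at 31.5 against 3.00 and Scnn1g at 32.9 against 2.48. Atp12a, the apical proton and potassium pump of the colon, was at 438 against 27.8 CPM, and Fxyd4, a small regulator of the sodium pump, at 217 against 14.0. Atp1b1, the beta subunit of that pump, differed less, at 1519 against 707 CPM. The 4 genes on the lower side included Slc12a2, the basolateral chloride loader of secreting cells (196 against 562 CPM), Kcnn4, a potassium channel (12.2 against 64.0), and Aqp4 (1.43 against 24.6), with Fxyd3 (75.8 against 262). The chloride channel Cftr was at 33.3 against 48.8 CPM, and Slc9a3, the main sodium and proton exchanger of surface colonocytes in tissue, was at only 1.81 CPM.

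Among the carbonic anhydrases, 5 of the 13 listed genes were compared, and all 5 were higher. Besides Car1 and Car4 these were Car2 (1440 against 450 CPM), Car9, a membrane form induced by low oxygen (113 against 27.0), and Car13 (43.3 against 21.1). Of 23 carriers of nutrients and organic solutes 10 were compared and 8 were higher (10.6% of all compared genes were), with a median of 2.82. They included the peptide carrier Slc15a1 (39.4 against 2.54 CPM), the bile acid carrier Slc10a2 (90.9 against 12.1), the glucose carrier Slc2a1 (80.3 against 28.3) and the efflux pumps Abcb1a (749 against 154) and Abcg2 (128 against 14.7). Of these Slc15a1, Slc10a2 and Abcg2 reached 20 CPM only in the Absorptive cells, so they had to be higher to be compared. The butyrate carrier Slc16a1 was at 56.8 against 33.6 CPM. Fabp1 and Cd36, which carry fatty acids in the small intestine, were at 0.0623 and 0 CPM.

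Brush border and apical surface genes were higher in 17 of the 21 compared members and lower in none, with a median of 1.60. Over all compared genes 10.6% were higher and 15.7% lower. Mep1a and Mep1b, the subunits of the protease meprin, were at 87.3 and 73.7 CPM against 6.18 and 5.66. Cdhr2 and Cdhr5, the cadherins that link neighbouring microvilli, were at 262 and 498 CPM against 44.7 and 68.7, and Myo1a, the myosin that ties actin to the microvillar membrane, at 201 against 45.6. Tmigd1 (59.0 against 2.31) and Ceacam20 (62.0 against 2.54) showed some of the larger differences. Krt20, a keratin of mature epithelium, was at 443 against 36.03 CPM, whereas Krt18 was at 1184 against 1325 CPM. Alpi, the alkaline phosphatase of the small intestinal brush border, stayed at 5.54 CPM.

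Of the surface defence genes 11 were compared and 10 were higher (10.6% of all compared genes were), with a median of 2.05. Besides Lypd8 and Saa1 these included Dmbt1, a scavenger receptor in mucus (475 against 29.0 CPM), Ly6g (723 against 81.3), the transmembrane mucins Muc3 (934 against 224) and Muc13 (463 against 191), and the galectins Lgals3 (3149 against 761) and Lgals4 (7897 against 3002). The lectins Reg3b and Reg3g had no UMI.

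Detoxifying enzymes were higher in 16 of 20 compared members, with a median of 2.38, and lower in 2, the glutathione transferases Gstm1 and Mgst1 (7.29 against 39.1 and 13.8 against 93.5 CPM). Cyp4f14 (147 against 4.06 CPM) and Cyp2d34 (131 against 6.54) are P450 enzymes, Ces2c (390 against 25) a carboxylesterase, Sult1b1 (366 against 31.3) a sulfotransferase and Gsta1 (629 against 48.8) a glutathione transferase. Fatty acid oxidation and ketogenesis differed less. Of 18 compared genes 5 were at least 2-fold higher, where 10.6% of all compared genes were, and the median was 0.64. Among the 5 were Cpt1a, which brings fatty acids into mitochondria (57.0 against 23.0 CPM), and Plin2, a coat protein of lipid droplets (264 against 92.0 CPM).

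Factors of intestinal differentiation were higher in 6 of 14 compared genes (10.6% of all compared genes were), with a median of 0.72. These were Creb3l3 (48.5 against 1.63 CPM), a membrane-bound factor of lipid metabolism, Mxd1 (202 against 29.9), an antagonist of Myc, the vitamin D receptor Vdr (52.8 against 8.96), Klf4 (447 against 123), the aldosterone receptor Nr3c2 (52.9 against 19.3) and Elf3 (178 against 84.1). Hnf4a was at 144 against 73.2 CPM, Cdx1 at 195 against 154 and Klf5 at 333 against 321. Of the secretory lineage factors only Foxa3 reached the minimum, and it was lower (5.85 against 38.9 CPM), while Atoh1 and Neurog3, which start the secretory and endocrine programs, each had 0.0623 CPM.

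The genes of dividing and stem cells were lower with few exceptions. Of the 19 cell cycle genes 18 were at least 2-fold lower, with a median of -3.87, where 15.7% of all genes were. Mki67 was at 6.17 CPM against 149, Top2a at 4.297 against 128 and Ccna2 at 1.43 against 61.0, while Ccnd2 (514 against 499 CPM) was the exception. Mki67, Top2a, Ccna2 and most of the list reached 20 CPM only in the other epithelial cells, so they had to be lower to be compared. Of 9 compared Wnt and stem cell genes 7 were lower, among them Lgr5 (0.498 against 36.7 CPM), Smoc2 (0.996 against 77.5), Axin2 (3.799 against 39.9) and Cd44 (8.10 against 72.3). Each of these named genes also reached 20 CPM only in the other epithelial cells. Of 7 compared arrest genes 6 were higher, among them Cdkn1a, the inhibitor p21 (735 against 236 CPM), Cdkn1c (113 against 15.2), Ccng2 (63.0 against 12.4) and Btg2 (357 against 113).

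The fetal and regenerative list split. Of 13 compared genes 3 were higher, Il1rn (250 against 50.4 CPM), Ly6c1 (385 against 161) and S100a6 (18180 against 7876), and 3 were lower, among them Spp1 (0.187 against 166) and Clu (38.3 against 486). Ly6a, the gene of the surface protein Sca-1, was at 2359 CPM in the Absorptive cells against 1257. Guca2a and Guca2b, the guanylin hormones of mature colonocytes, were at 17 and 11.7 CPM in the Absorptive cells, against 20.5 and 40.8 CPM in the others, and their receptor Gucy2c was at 28.5 against 23.0. Bmp2 was at 81.7 against 11.9 CPM, the one higher gene of 6 in the BMP list, and Id2 was lower. Among the 12 junction genes compared, Cldn23 was higher (39.8 against 10.1 CPM) and Cldn2, a leaky claudin of the crypt, was lower (1.31 against 35.2). Of 9 TNF receptors and targets Nfkbia (480 against 234 CPM) and Relb (45.6 against 16.7) were higher and Cxcl10 was lower (2.55 against 61.3). In the antigen presentation list H2-D1 and the protease Ctss were higher, and Cd74 and H2-Aa, of the class II pathway, had no UMI. Over all compared genes 10.6% were higher and 15.7% lower. The counts of the lists in this paragraph are small beside these shares and are descriptions only. The medians of the guanylin, BMP and interferon lists lay within 0.26 of 0 and moved with the scaling, those of the guanylin and interferon lists changing sign under TMM.

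**Figure D2:**
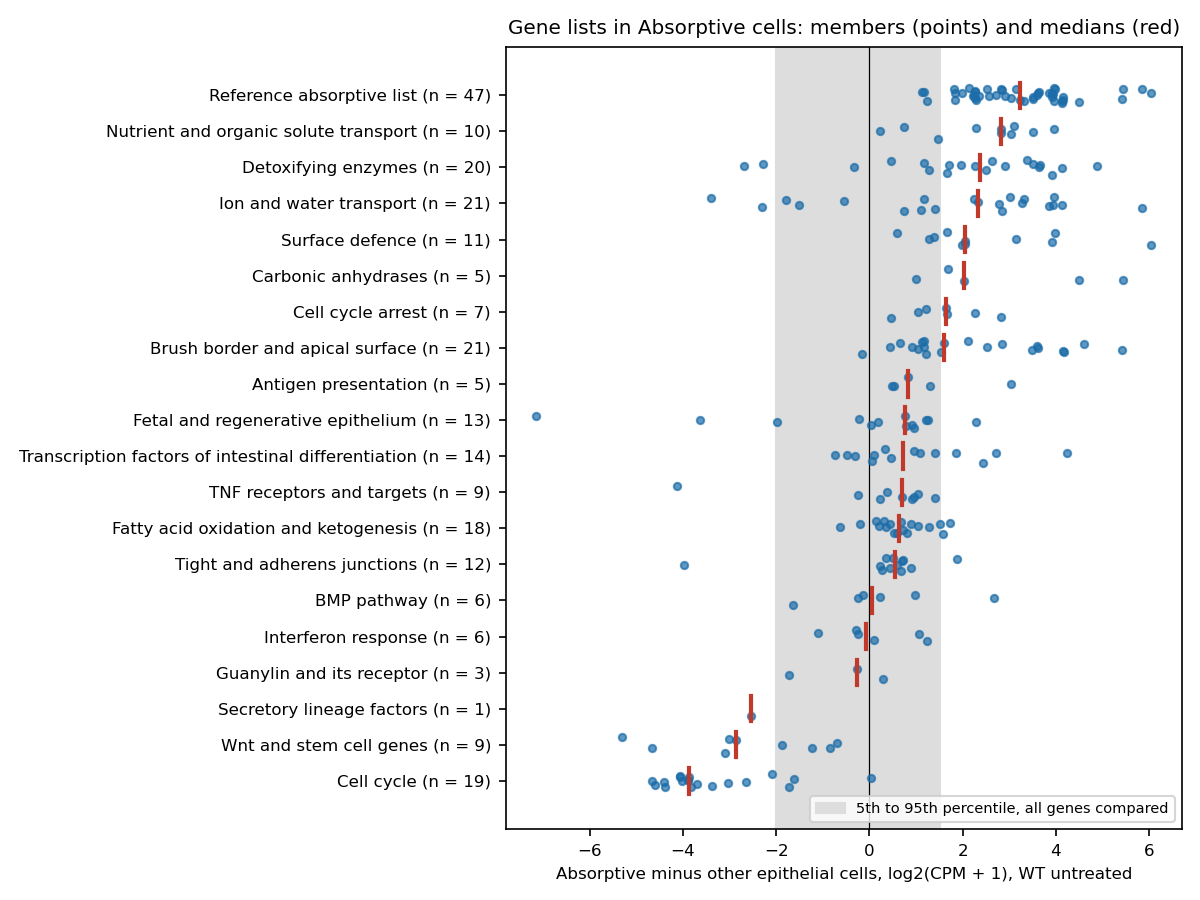
Difference of each compared list member between Absorptive and other epithelial cells of WT untreated (horizontal axis, log2 of CPM + 1; points) by gene list (vertical axis, with the number compared); red bars are medians and the grey band holds the middle 90% of all genes compared. Transport, detoxification and defence lists have medians of 2.05 to 2.82, and the cell cycle list one of -3.87.

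A list of 50 absorptive genes from a reference atlas, given by the study, had 47 members that reached the minimum, and all 47 were at least 2-fold higher, with a median of 3.23. The authors may have used such genes to name the class, so this count describes the label.

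Progenitor.2 was the class most like the Absorptive one. Across genes in WT untreated, log2(CPM + 1) of the Absorptive cells correlated with that of Progenitor.2 at a Pearson r of 0.850, against 0.747 for Progenitor.1, 0.683 for Progenitor.3, 0.671 for the Secretory-Reg4-Spdef-Lyz1 class and 0.440 for enteroendocrine cells. Genes are not independent replicates, and the sums differ in depth. Median depth per cell was 15570 UMIs in Progenitor.2 and 40871 in the Absorptive cells. Against the 62 Progenitor.2 cells, 371 genes were higher (6.51%) and 521 lower (9.15%), and against the 546 Progenitor.1 cells 713 were higher (11.9%) and 1004 lower (16.8%). The counts were 1362 higher (24.2%) and 776 lower (13.8%) against Progenitor.3, 874 (14.9%) and 817 (14%) against the Secretory-Reg4-Spdef-Lyz1 class, and 1029 (15%) and 2173 (31.6%) against enteroendocrine cells. All 6 markers were higher in Progenitor.2 than in the other 4 classes, which they did not put in 1 order (Lypd8 was at 1084 CPM in the Secretory-Reg4-Spdef-Lyz1 class, 894 in Progenitor.1 and 556 in Progenitor.3). Aqp8 was 3.64-fold higher in Absorptive than in Progenitor.2 cells (interval 3.20 to 4.17) and 495-fold higher than in Progenitor.1 cells (342 to 745), and Saa1 3.96-fold (3.73 to 4.21) and 401-fold (347 to 467) higher. Tgm3 and Rbp2 also separated the first pair, at 103 against 11.3 CPM and 422 against 81.0 CPM.

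The share of cells labelled Absorptive differed widely between libraries. It was 28.3% of the 1128 epithelial cells of WT untreated (exact binomial interval 25.7 to 31.0%), 1.63% of 1163 in WT TNF (0.986 to 2.54%), 1.08% of 1023 in Tnfr2-/- untreated (0.538 to 1.92%) and 0.117% of 858 in Tnfr2-/- TNF (0.00295 to 0.648%). The intervals of WT untreated and of the other libraries do not overlap, but they leave out the spread between cultures, which was not measured.

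Cells with absorptive markers were not confined to the label. After each cell was thinned at random to 5000 UMIs, 291 of 317 Absorptive cells of WT untreated (91.8%) held UMIs of 3 or more of the 6 markers, as did 32 of 56 Progenitor.2 cells (57.1%) and 52 of 546 Progenitor.1 cells (9.52%). Mesenchymal cells, which should lack these genes, did so in 4 of 1417 cases (0.282%), at a median depth before thinning of 22640 UMIs against 40871 in the Absorptive cells. The mesenchymal counts were 0 of 298 in WT TNF, 0 of 86 in Tnfr2-/- untreated and 2 of 120 in Tnfr2-/- TNF (1.67%, 0.203 to 5.89%). In Progenitor.2 the share was 48.9% in WT TNF (132 of 270 cells), 21.3% in Tnfr2-/- untreated (48 of 225) and 16.9% in Tnfr2-/- TNF (120 of 710). Without thinning these 3 shares were 59.0%, 29.2% and 27.5%. The Progenitor.2 cells of WT untreated were shallow, at a median of 15570 UMIs. Thinned to 10000 UMIs, 25 of the 43 that reached that depth (58.1%) held 3 or more markers. Aqp8 was in 5 of these 43 cells, against 11 of 56 at 5000 UMIs, and Car4 in 1 of 43 against 8 of 56.

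By that count 35.02% of the epithelial cells of WT untreated (380 of 1085), 18.7% in WT TNF (163 of 873), 8.38% in Tnfr2-/- untreated (83 of 990) and 15.0% in Tnfr2-/- TNF (127 of 846) were marker-holding cells. Cells under 5000 UMIs were left out, which kept 1085 of 1128, 873 of 1163, 990 of 1023 and 846 of 858 epithelial cells. In WT TNF 244 of the cells left out were of the Secretory-Reg4-Ang4 class, in which 0 of 246 cells held 3 markers before thinning. The label shares count all epithelial cells, so label and marker shares have unlike denominators. WT untreated was highest by both counts, but the gap to WT TNF, 28.3% against 1.63% by the label, was 35.02% against 18.7% by the markers. The order of the last pair turned, since Tnfr2-/- TNF had fewer labelled cells than Tnfr2-/- untreated and more marker-holding ones. In WT untreated 291 of the 380 cells carried the Absorptive label, whereas 132 of 163, 48 of 83 and 120 of 127 carried the Progenitor.2 label in the other libraries. The Progenitor.2 cells held less of each marker than the Absorptive cells of their library in all but the single-cell sum of Tnfr2-/- TNF, with Lypd8 at 4833 CPM in WT TNF, 883 in Tnfr2-/- untreated and 959 in Tnfr2-/- TNF, and Aqp8 at 62.8, 1.21 and 4.27 CPM.

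**Figure D3:**
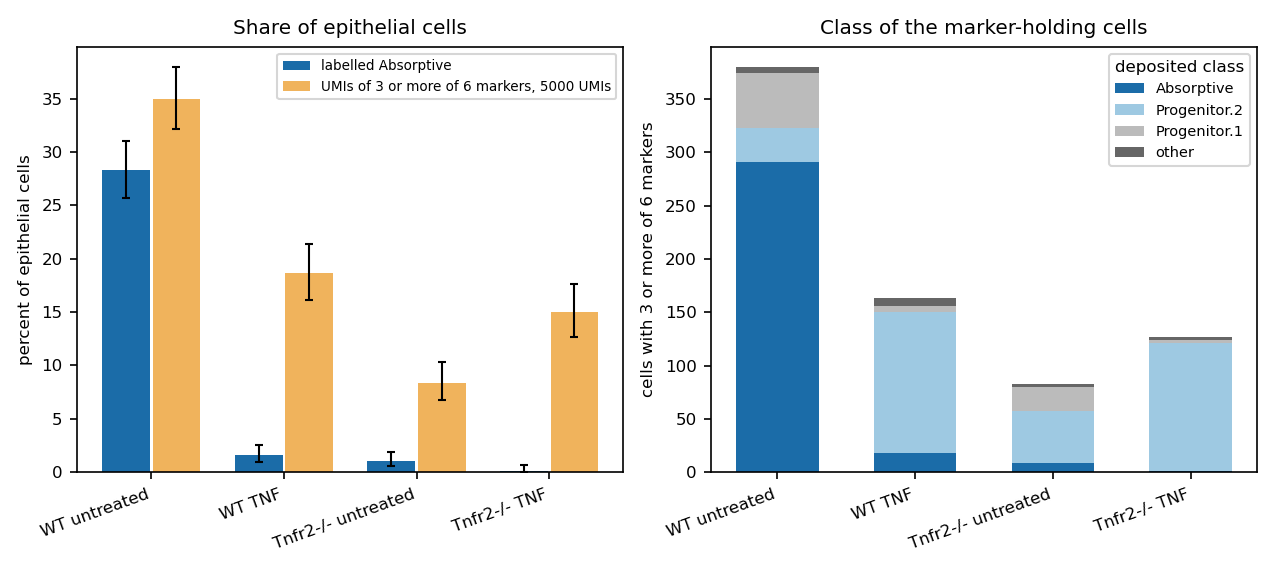
Left, percent of epithelial cells in each library (horizontal axis) that are labelled Absorptive and percent that hold UMIs of 3 or more of 6 markers at 5000 UMIs per cell, with exact 95% binomial intervals. Right, number of the marker-holding cells by deposited class; most are Absorptive in WT untreated (291 of 380) and Progenitor.2 in the other libraries.

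Within WT untreated the 319 Absorptive cells were not uniform. Lypd8 was in 318 cells, with a median of 12608 CPM per cell and quartiles of 6369 and 25465, and Cyp2c55 was in 312, with a median of 1982 CPM. Aqp8 was in 178 cells, with a median of 28.5 CPM, an upper quartile of 744 and a maximum of 13420. Car4 was in only 85 cells and reached 11321 CPM, and Saa1 was in 257 cells, with a median of 795 CPM and a maximum of 32070. The coefficient of variation over cells was 0.777 for Cyp2c55, 0.926 for Lypd8 and 0.990 for Car1, against 1.62 for Saa1, 2.10 for Aqp8 and 3.64 for Car4, beside 0.451 for the keratin Krt8. These values are of cells of 1 library and include counting error.

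Clustering of these cells alone gave 4 sub-clusters, which are described by their leading genes. Sub-cluster 1 (86 cells) was led by Aqp8, 1810065E05Rik, Eno3 and Slc26a3. It held Aqp8 at 1408 CPM and Slc26a3 at 279 CPM, against 245 and 66.9 CPM in the other sub-clusters together, and the vitamin D receptor Vdr at 110 against 36.7 CPM.

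Sub-cluster 4 (71 cells) was led by Clca4a (361 against 12.1 CPM), Car4 (982 against 46.4), the lipase-related Pnliprp2 (114 against 6.77) and Cdkn1c (533 against 37.0). Saa1 was at 11505 CPM there against 1055, Creb3l3 at 188 against 23.2 and Sprr1a, a gene of cornified and wounded epithelium, at 83.6 against 10.0 CPM. It had the highest Lypd8 of the 4 (38930 CPM against 6847 to 18780), the highest Krt20 (907 CPM) and the lowest Mki67 (0.406 CPM). Both sub-clusters 1 and 4 held high Aqp8 (1408 and 1129 CPM) and Cdkn1a (1210 and 1351 CPM), beside Car4 at 176 and 982 CPM.

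Sub-cluster 2 (81 cells) was led by Agr2 (338 against 35.3 CPM), a disulfide isomerase of mucus-making cells, Sval1 (54.1 against 5.15), Spink4 (87.7 against 12.9), Tff3, a trefoil factor (111 against 17.6), and Zg16, a lectin of goblet cells (60.1 against 9.65). Muc2, the main goblet mucin, was at 11.8 CPM, against 1.41, 0.820 and 0.406 CPM in sub-clusters 1, 3 and 4. Aqp8 was at 48.7 CPM, Saa1 at 105 and Car4 at 1.35, while Lypd8 was at 6847 and Tgm3 at 128 CPM. Sub-cluster 3 (81 cells) was led by Msln, mesothelin (278 against 23.0 CPM), Timp2 (101 against 10.4), Tm4sf1 (84.4 against 11.3), Wfdc2 (3605 against 546) and Clu (88.7 against 16.3). Ly6a was at 4010 CPM there, the highest of the 4 (1065 to 3283 in the others), and Aqp8 was at 6.56 CPM with no UMI of Car4. The 19 cell cycle genes summed to 942 and 1055 CPM in sub-clusters 2 and 3 and to 207 and 147 CPM in sub-clusters 1 and 4, but most of each of the larger sums was Ccnd2, at 698 and 812 CPM against 131 and 89.7 CPM, with Ccnd1 at 115 and 130 CPM. Mki67 was at 10.2 and 6.56 CPM in sub-clusters 2 and 3, against 3.67 and 0.406 CPM.

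The share of cells with the markers differed among the 4. After thinning, 85 of 86, 76 of 81, 61 of 81 and 69 of 71 cells of sub-clusters 1, 2, 3 and 4 held 3 or more of the 6 markers. When all 6155 cells were clustered anew, 1 of 19 clusters was highest for all 6 markers, and it took 292 of the 319 cells. The 27 left out were 25 cells of sub-cluster 3 and 2 of sub-cluster 2. Over all libraries the same cluster took 302 of the 350 Absorptive cells, 42 Progenitor.2 and 21 Progenitor.1 cells. Median depth was 35254, 55985, 52520 and 32245 UMIs per cell in sub-clusters 1 to 4, so the pairs that differ in Aqp8 also differ in depth, and the part of depth in the clustering was not tested.

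**Figure D4:**
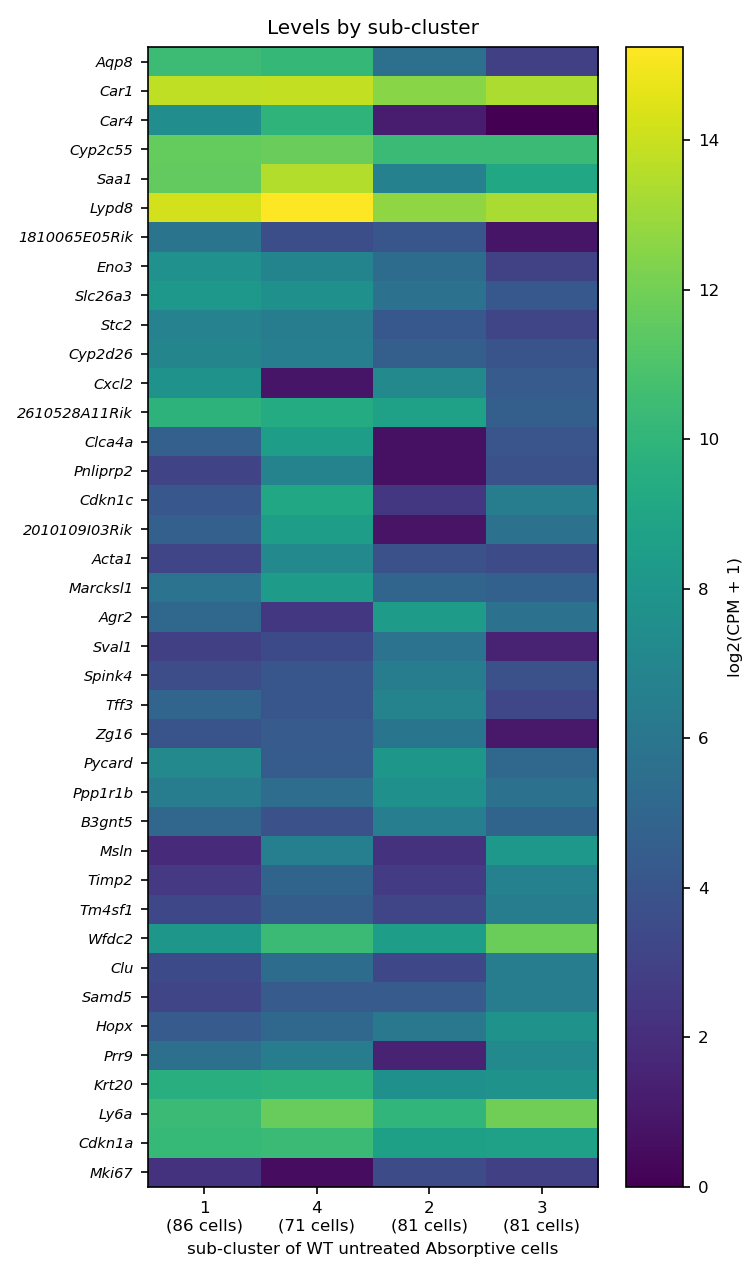
Level (colour, log2 of CPM + 1) of the 6 markers, leading genes and 4 further genes (rows) in the 4 sub-clusters of WT untreated Absorptive cells (columns, with their number of cells). Aqp8 is at 1408 and 1129 CPM in sub-clusters 1 and 4 and at 48.7 and 6.56 CPM in sub-clusters 2 and 3, and Car4 and Clca4a are highest in sub-cluster 4.

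Each Absorptive cell of the other libraries was set beside these sub-clusters by its correlation over 1798 genes that differ among them. Of the 19 WT TNF cells 12 were most like sub-cluster 1, 3 like sub-cluster 2, 1 like sub-cluster 3 and 3 like sub-cluster 4. Of the 11 Tnfr2-/- untreated cells 1, 3, 5 and 2 were, and the Tnfr2-/- TNF cell was most like sub-cluster 1.

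The comparison of WT TNF with WT untreated addresses what the Absorptive cells hold after TNF. Of 1583 genes at 100 CPM or more in either sum, 56 were at least 2-fold higher in the 19 WT TNF cells with a ratio interval above 1 (3.54%), and 27 were lower (1.71%). Some levels come from few cells, so the number of cells and the part of the largest one are given.

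The guanylins were higher in WT TNF. Guca2b was at 11.7 CPM in WT untreated and 556 CPM in WT TNF, 47.5-fold higher (interval 40.0 to 56.5), with UMIs in 16 of 19 cells and 22.7% of them in 1 cell. Guca2a was at 17 and 273 CPM, 16.1-fold higher (13.4 to 19.2), again in 16 cells, with a range over cells of 0 to 778 CPM and a median of 229. In the other epithelial cells of the same libraries Guca2b was at 40.8 and 233 CPM, and in Progenitor.2 at 1.79 and 405 CPM, so it was also higher outside the label. Nos2, the inducible nitric oxide synthase, was at 1.93 and 168 CPM in Absorptive cells (15 of 19 cells with a UMI) and at 1.49 and 138 CPM in the other epithelial cells. Ccl20, a chemokine for lymphocytes, was at 18.8 and 324 CPM in 12 cells, and Ubd, a ubiquitin-like gene induced by cytokines, at 1.74 and 122 CPM in 13 cells. Psca had the largest ratio (1.74 and 222 CPM), but 84.4% of its UMIs were in 1 of the 2 cells that held it.

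Car2 was 2.96-fold higher (2.86 to 3.06), at 1440 and 4262 CPM, and was in all 19 cells, with a cell median of 4601 CPM. Car4 went the other way, at 190 and 8.10 CPM, a ratio of 0.0427 (0.0171 to 0.0880), and all 7 of its UMIs were in 1 cell. Clca4b, a relative of the chloride channel regulators, was at 85.6 and 577 CPM in all 19 cells, and Fxyd4 at 217 and 30.1 CPM. Sgk1, the aldosterone-regulated kinase that acts on the sodium channel, was at 333 and 53.3 CPM in Absorptive cells and at 66.1 and 78.5 CPM in the other epithelial cells. Mt1, a metallothionein, was at 643 and 116 CPM, against 650 and 556 CPM in the other epithelial cells. Bmyc (109 and 8.10 CPM) was the remaining one of the 5 lower genes farthest from a ratio of 1.

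By list, 2 of 5 compared TNF receptors and targets were higher (Ccl20 and Relb, the latter at 45.6 and 103 CPM) and none lower, beside a median difference of 0.86 for the list and 0.03 for all genes. Ccl20, Relb and Cxcl2 (99.3 and 122 CPM) reached the minimum of 100 CPM only in WT TNF, so they had to be higher there to be compared, which also lifts the median. Nfkbia was at 480 and 871 CPM, and Tnf itself, below the minimum, at 9.22 and 81.0 CPM in 14 of 19 cells. Over all compared genes 3.54% were higher and 1.71% lower, and the list counts given here are small. Of 17 detoxifying enzymes 3 were higher (Gsta1, Gsta4 and Cyp2c68) and 1 lower (Ces2a). Of 12 transport genes 2 were higher (Clca4b and Slc20a1) and 1 lower (Fxyd4), and of 16 brush border genes none was higher and Tgm3 was lower (103 and 26.6 CPM). Ly6d was the one higher gene of 9 in the fetal and regenerative list, at 181 and 906 CPM, with 57.7% of its UMIs in 1 cell and 446 CPM without that cell. Of the 39 compared genes of the reference list 2 were higher and 4 lower (Car4, Tgm3, Fxyd4 and Fhl1). Without each gene's highest cell 38 of the 56 higher genes stayed above 2-fold. Those that did not included Gsta1, Cyp2c68 and Ly6g.

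**Figure D5:**
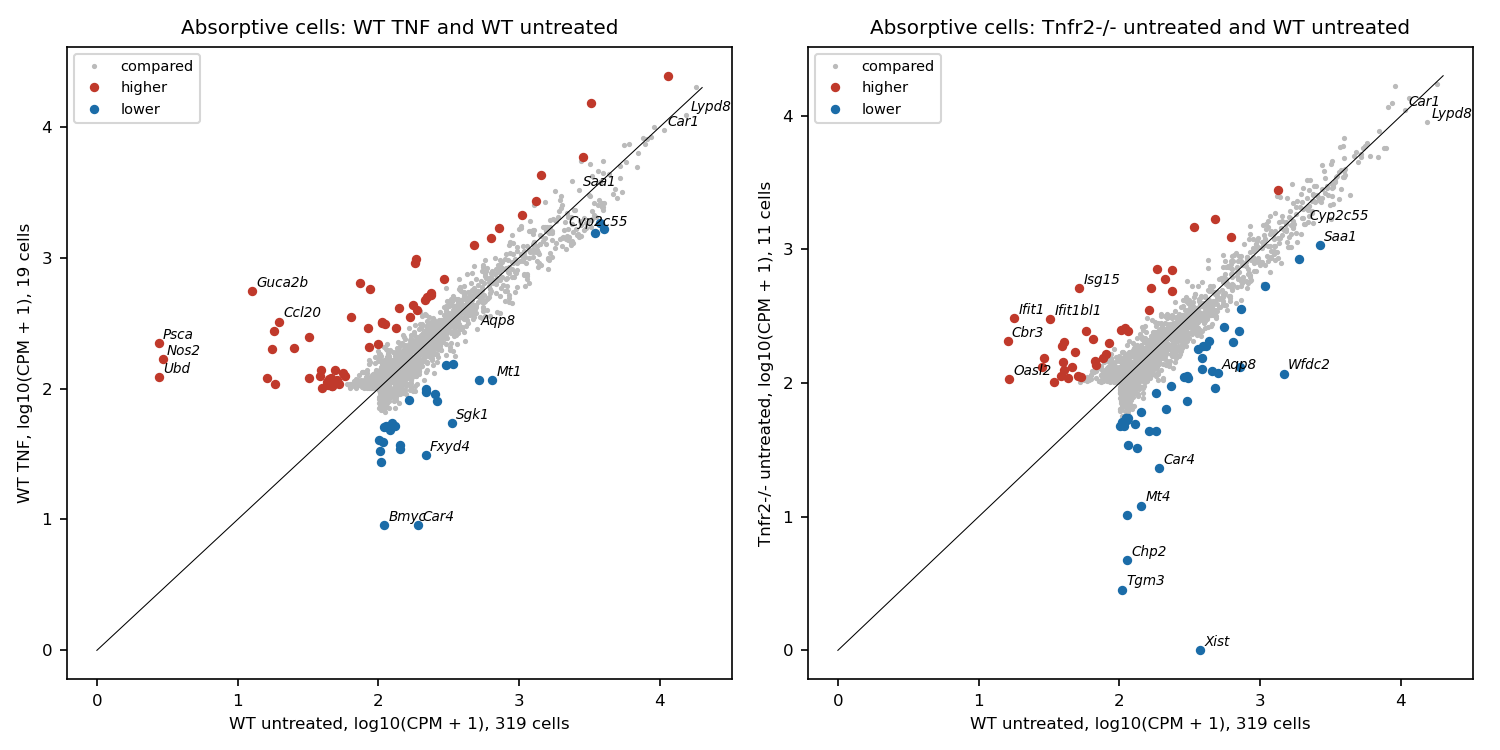
Level of each gene with 100 CPM or more in either sum (points; log10 of CPM + 1) in Absorptive cells of WT untreated (horizontal axis) and of WT TNF (left) or Tnfr2-/- untreated (right; vertical axes). Red and blue mark genes 2-fold higher or lower whose ratio interval leaves out 1 (56 and 27 on the left, 38 and 45 on the right), the line is equality, and markers and the 5 farthest genes a side are named.

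The comparison of Tnfr2-/- untreated with WT untreated addresses what Absorptive cells hold without TNFR2 and without added TNF, and rests on 11 cells. Of 1583 genes 38 were higher (2.4%) and 45 lower (2.84%). The sets share their WT untreated cells with the TNF comparison.

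Interferon-induced genes were on the higher side. Isg15, a ubiquitin-like protein, was at 50.7 CPM in WT untreated and 512 in Tnfr2-/- untreated, a ratio of 10.1 (8.77 to 11.6). Its range over the 11 cells was 0 to 1641 CPM with a median of 254, 9 cells held it, and 38.8% of its UMIs were in 1 cell. Ifit1 was at 16.9 and 304 CPM (7 cells, 60.4% in 1 cell), Ifit1bl1 at 31.2 and 300 CPM (8 cells, 57.4% in 1), Irf7 at 64.4 and 211 CPM, Bst2 at 102 and 247 CPM and Oasl2 at 15.4 and 106 CPM. Of the 15 genes listed 7 reached 100 CPM, and all 7 were higher, but only Bst2 also reached it in WT untreated, so the other members had to differ to be compared. Of the 8 that did not reach it, Irf1 (10.7 and 5.56 CPM) and Gbp2 (0.934 and 0 CPM) were lower. The others of the 8 were higher, such as Ifit3 (9.09 and 64.9 CPM) and Usp18 (2.30 and 40.8 CPM). The other epithelial cells of the same libraries held Isg15 at 60.05 and 141 CPM and Ifit1 at 20.8 and 59.95 CPM. In Progenitor.2 Isg15 was at 201 and 132 CPM. Cbr3, a carbonyl reductase, was at 15.1 and 206 CPM in 7 cells.

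Some absorptive genes were lower. Of 37 compared members of the reference list 9 were lower, Aqp8, Ly6g, Car4, Ces2c, Saa1, Tgm3, Dmbt1, Selenop and Ctss, and 1 was higher, where 2.84% and 2.4% of all compared genes were, and the list's median difference was -0.39 beside -0.05. Aqp8 was at 501 and 119 CPM, a ratio of 0.237 (0.182 to 0.303), with UMIs in 5 of 11 cells. Saa1 was at 2659 and 1082 CPM, Dmbt1 at 475 and 90.8, Ly6g at 723 and 132 and Tgm3 at 103 and 1.85 CPM (1 UMI). Car4, Dmbt1 and Tgm3 reached 100 CPM only in WT untreated, so they had to be lower to be compared. Of the 11 cells 3 and 5 were most like sub-clusters 2 and 3. In WT untreated those sub-clusters held Aqp8 at 48.7 and 6.56 CPM, against 1408 and 1129 CPM in sub-clusters 1 and 4. Ly6g did not follow this order, at 56.0 and 1215 CPM against 338 and 1700 CPM. The part of this mix in the lower levels was not tested. Car9 was at 113 and 9.27 CPM, and Wfdc2, a protease inhibitor that led sub-cluster 3, at 1476 and 117 CPM. Mt4, a metallothionein, Chp2, a partner of sodium and proton exchangers, and Xist completed the 5 lower genes farthest from a ratio of 1. The brush border list had 1 lower gene of 14 (Tgm3), and the fatty acid oxidation list none of 7 in either direction. In the fetal and regenerative list Clu was higher (38.3 and 187 CPM, 10 of 11 cells) and Ly6c1 and Msln were lower. Clu in the other epithelial cells was at 486 and 812 CPM.

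The single Absorptive cell of Tnfr2-/- TNF held 42016 UMIs. It had Car1 at 22753 CPM, Lypd8 at 12971, Krt20 at 738 and Slc26a3 at 238 CPM, Guca2a at 167 CPM, and no UMI of Aqp8, Car4 or Clca4a, where 3 counts would be 71.4 CPM. The goblet markers of this cell summed to 1928 CPM (81 UMIs), against 2862.5 CPM in the other epithelial cells of the library. Saa1 was lower in it than in those cells, at 119 against 327 CPM.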

How the data were processed

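RNA of single cells was measured in 4 libraries on the 10x Chromium platform. The authors deposited whole-number UMI counts per gene and cell, unnormalized, made with Cell Ranger 5.0.0, and mm10 is the build named in the submitters' processing notes. They removed cells under 100 UMIs and doublets of epithelial and mesenchymal cells, clustered with monocle3 and deposited a class for each cell, used here as given. Counts were summed by class and library and given as CPM. Differences are log2(CPM + 1) with a minimum of 20 CPM for classes, and ratios with a minimum of 100 CPM in 1 of the 2 sums and an exact conditional interval for libraries. With 1 library per group no test was made. Sums have exact Poisson and shares Clopper-Pearson intervals (95%), for counting error only, and a count of 0 allows up to 3 counts. Leading genes were the 15 at 50 CPM or more with the largest smallest difference from any class of 30 cells or more, the 10 lowest likewise, and for libraries the 5 per direction whose interval lay farthest from 1. From each list up to 6 genes with the highest level and 3 with the largest difference were named. Genes named outside these rules, among them most sub-cluster genes, were chosen after their values were seen. 3' UMI levels were not compared between genes. Of 30360 genes the 30293 with a symbol of their own were used. Doublets were called with scrublet in scanpy 1.11.5 at an expected rate of 0.06 (47 cells, 0.764%). Sub-clusters used 2000 variable genes, 20 components, 15 neighbours and a resolution of 0.5 (new clusters of all cells: 50 components and a resolution of 1). Positions are from GENCODE M21. The functions were tested on simulated data. The members and lists were chosen with earlier results of these data known. Some list members are counted but not reported here by name.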

Additional observations from a re-analysis of the deposited data

Results flagged for a closer look

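Cells without a class were in no comparison above, and some of them held absorptive markers. In WT untreated 31 cells had no class, and 11 of them (35.5%, exact interval 19.2 to 54.6%) held UMIs of 3 or more of the 6 markers after thinning to 5000 UMIs, against 0.282% of the mesenchymal cells of that library. Scrublet called 21 of these 31 cells doublets. Their median depth was 66570 UMIs, against 40871 in the Absorptive cells.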

How the results depend on the processing

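The number of Absorptive cells rests on how they are found. New clusters of all cells gave 0.430% in WT TNF and 2.44% in Tnfr2-/- untreated, and the count of cells with 3 of 6 markers gave 35.02%, 18.7%, 8.38% and 15.0% in WT untreated, WT TNF, Tnfr2-/- untreated and Tnfr2-/- TNF. Leaving out the Secretory-Reg4-Ang4 cells, an alternative chosen after seeing the data, gave 2.07% in WT TNF. Without a minimum level 1025 genes were higher and 2310 lower than in the other epithelial cells, 893 and 1305 against Progenitor.2, 1161 and 2238 against Progenitor.1, and 201 were above every class. TMM gave 1159 higher and 592 lower, 653 higher against Progenitor.2, 1228 higher and 620 lower against Progenitor.1, and 212 above and 34 below every class, and the median of ratios gave 981 higher. The genes below every class numbered 138 with a pseudocount of 0.1 and 11 with one of 10, and with the latter 330 were lower than in Progenitor.2. At a minimum of 20 CPM the library comparisons gave 189 higher and 128 lower in WT TNF and 268 and 197 in Tnfr2-/- untreated, and the mean of per-cell CPM gave 70 lower in the latter. Leaving out each gene's highest cell, also chosen after seeing the data, gave 48 and 81 lower genes, since it lowers every level, and kept all 27 and 45 and 38 of 56 and 29 of 38 higher ones. Unthinned, the Progenitor.2 shares were 59.0%, 29.2% and 27.5% in the last 3 libraries. A resolution of 1 gave 8 sub-clusters in place of 4. With the other classes weighted equally the differences of Aqp8, Saa1 and Car4 were 4.09, 4.25 and 3.73 (log2), against 5.85, 6.04 and 5.44. The 6 markers stayed at least 2-fold higher under all 10 alternatives. They may have served to name the class, and a minimum level cannot change a gene's own difference, so this is no check of the class. Of 60 list medians 54 moved by 0.5 or less (log2) under the alternatives. No paired analysis was possible because each group had 1 library and no test was made. The libraries other than WT untreated hold 19, 11 and 1 Absorptive cells, and single cells carry much of some levels there, up to 84.4% of the UMIs of Psca.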

Other observations

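Ribosomal protein genes took a smaller part of the RNA in Absorptive cells than in other epithelial cells, a group looked at after its values were seen. In WT untreated 85 such genes held 18.96% of the UMIs of the Absorptive cells and 30.5% of those of the other epithelial cells, and the figures were 11.8% and 24.8% in WT TNF and 19.9% and 27.7% in Tnfr2-/- untreated. Over the WT untreated Absorptive cells the part ran from 1.38 to 41.6%, with a median of 16.1%. It was 15.0% in sub-cluster 1, 27.3% in sub-cluster 2, 19.9% in sub-cluster 3 and 5.32% in sub-cluster 4. Of 82 compared ribosomal genes 8 were at least 2-fold lower and none was higher, where 15.7% and 10.6% of all compared genes were, and the median difference was -0.68 (log2).

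Other groups were chosen in the same way, where 10.6% of all compared genes were higher. Areg, the EGF family ligand amphiregulin, was at 1875 CPM in the WT untreated Absorptive cells against 541 in the others, and Hbegf at 294 against 117 CPM, while Tgfa, Btc and Ereg differed by less than 2-fold. Areg was at 2036 CPM in WT TNF and 851 CPM in Tnfr2-/- untreated. Of 12 glycolysis genes 3 were at least 2-fold higher (Eno3, Hk1 and Ldha) and 9 were not. Of 8 immediate early genes 5 were higher, among them Fos (828 against 262 CPM) and Atf3 (570 against 211), and Ier3 was lower (43.0 against 151). The metallothioneins Mt1, Mt2 and Mt4 were at 643, 43.6 and 142 CPM in WT untreated Absorptive cells, against 650, 74.5 and 25.5 CPM in the other epithelial cells. In the Absorptive cells of the other libraries they were at 116, 4.63 and 33.6 CPM in WT TNF and 202, 3.71 and 11.1 CPM in Tnfr2-/- untreated.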
